A study of Mus musculus with 6 samples.

Results

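The 10 antigen presentation genes in this account were chosen by name and measured in whole hearts of E13.5 mouse embryos, and all were found among the 46983 genes counted. H2-K1 and H2-D1 encode the classical class I heavy chains of the mouse major histocompatibility complex (MHC), B2m their light chain, and Tap1 and Tap2 the subunits of the peptide transporter that feeds them. H2-Aa, H2-Ab1 and H2-Eb1 encode class II chains, Cd74 the invariant chain that escorts class II proteins, and Ciita the transactivator of class II genes. RNA was sequenced from 3 mutant hearts (labelled TnnT2Cre;Wt1flox, replicates 1, 5 and 10) and 3 hearts labelled wild type (replicates 2, 3 and 5), called here by these numbers, with 1 heart per library, all of strain label C57BL/6 x DBA/2. By the study's methods, the mutants carried the Tnnt2 Cre transgene with both Wt1 alleles floxed, and the wild type embryos had both Wt1 alleles floxed too but no Cre. Cre under the Tnnt2 promoter is made mainly by heart muscle cells and their precursors, and per the study some proepicardial cells, from which the epicardium forms, recombine as well. The question was how loss of Wt1 in this lineage alters gene expression in the heart.

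Class I proteins show peptides from inside the cell and are made by most nucleated cells, whereas class II proteins show peptides taken up from outside and are made mainly by dendritic cells, B cells and activated macrophages. The class I peptides are cut by the proteasome, carried into the endoplasmic reticulum by the Tap1-Tap2 transporter and loaded onto a heavy chain with B2m. In class II, the alpha chain H2-Aa pairs with the beta chain H2-Ab1, Cd74 holds the groove until cathepsins such as Ctss cut it away, and Ciita switches the genes on. Early embryonic tissues are known for low class I levels, and the macrophages of the fetal heart for little class II.

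The promoters of class I and class II genes are known to share a module in which an X2 box (core TGACG) lies upstream of a Y box (ATTGG, the reverse complement of CCAAT) that binds the factor NF-Y. RefSeq promoter windows of build GRCm38.p6, each of 300 bases around a start site, were matched for 6 of the 10 genes (H2-K1, H2-D1, B2m, Tap1, H2-Aa and H2-Eb1). Both motifs were searched on both strands, and neither overlaps the other. In H2-K1, H2-D1 and B2m 20 bases lay between TGACG and ATTGG on the gene's strand, and in H2-Aa 21 bases. Over all 32851 windows, 20.8% held TGACG, 37.4% held ATTGG, and 1.12% held TGACG followed by ATTGG on the same strand with at most 40 bases between them. The window of H2-Eb1 held ATTGG without TGACG, and that of Tap1 held both motifs but not in this arrangement. The stretch of 60 bases around the Y box is shown for 4 of the genes, 5′ to 3′ on the gene's strand. The same arrangement stands before H2-Aa, whose counts did not overlap between the groups, and before H2-K1 and B2m, whose counts did. H2-Eb1 is shown as a gene with ATTGG alone, and H2-D1 is not shown. Capitals mark TGACG and ATTGG.
H2-K1 (chr17:34000349-34000408, minus strand): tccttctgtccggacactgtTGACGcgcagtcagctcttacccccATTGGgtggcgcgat
B2m (chr2:122147589-122147648, plus strand): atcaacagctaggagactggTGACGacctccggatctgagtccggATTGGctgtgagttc
H2-Aa (chr17:34287857-34287916, minus strand): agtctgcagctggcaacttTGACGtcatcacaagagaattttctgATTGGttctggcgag
H2-Eb1 (chr17:34305763-34305822, plus strand): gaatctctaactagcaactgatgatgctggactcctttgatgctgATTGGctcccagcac
A match of letters is a description and not a measured binding site. These are letters of the C57BL/6J reference, and DBA/2 carries another H2 haplotype, so the alleles of the embryos may differ.

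Total counts ran from 44244665 to 56373393 per heart. The 9 cardiac muscle markers were all detected, with a summed FPKM (the deposited count scaled to a gene's length and the library's total) between 25902 and 27764 in the 6 hearts. Wild type replicate 5 stood apart: over genes, the chi-square of a pair of hearts per gene was between 109 and 210 for pairs that held it and between 28.3 and 94.3 for the other 10 pairs, where counting error alone gives about 1. Its summed FPKM of 8 erythroid markers was 60589, that of mutant replicate 10 was 62497, and the other 4 hearts lay between 19216 and 25660. Wild type replicate 3 stood apart in genes of the liver, with 17429 counts of Alb (albumin) against 289 or fewer in each other heart. Wt1 itself, the targeted gene, had 20.9, 17.3 and 10.2 FPKM in wild type hearts 2, 3 and 5 and 9.29, 17.2 and 17.4 FPKM in mutant hearts 1, 5 and 10. Its log2 fold change was −0.10 (mutant over wild type, edgeR adjusted p = 0.990), so the gene's level did not separate the labelled groups, and a count over the whole gene does not separate recombined from intact alleles. Whether these hearts' differences contribute to the values below was not tested.

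The level of the 10 genes spanned more than 3 orders of magnitude in FPKM, with B2m highest in each heart. Averaged over the 6 hearts, FPKM was 139 for B2m, 30.1 for H2-D1, 22.5 for H2-K1, 8.29 for H2-Ab1 and 1.24 for H2-Eb1. Mean FPKM was below 1 for the other five, at 0.826 for Tap1, 0.757 for Cd74, 0.730 for Tap2, 0.319 for H2-Aa and 0.0522 for Ciita. Among the 26831 genes with a count in any heart, B2m stood at percentile 97.0 of mean FPKM, H2-Ab1 at 67.8 and Ciita at 23.7. Each of the first 4 genes was above the next in 6 of 6 hearts, so the order from B2m to H2-Eb1 did not depend on the heart. Tap1 and Cd74 could not be ordered, since Tap1 was higher in 3 of 6 hearts, and neither could Cd74 and Tap2 (3 of 6 hearts). The FPKM values rest on 1 fixed length per gene, which for H2-Aa was 817 bases where the annotated exons together cover 3798, and for B2m 860 in both. With the length of all annotated exons, a scale added after the data were seen, the order of the first 5 genes was the same, Cd74 came before Tap1, and H2-D1 had a mean of 10.6.

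**Figure D1:**
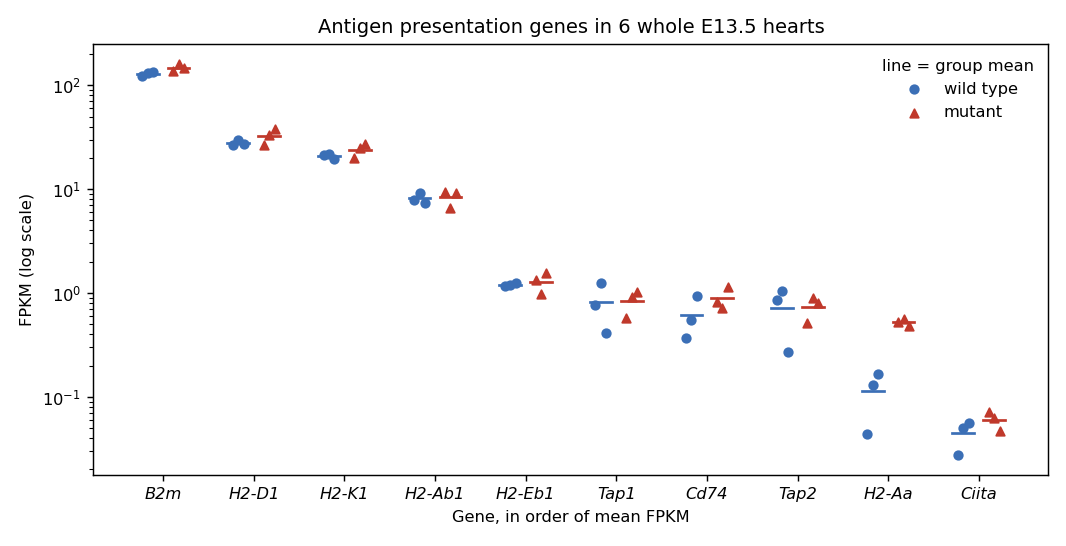
FPKM as deposited (log axis) of the 10 antigen presentation genes in each heart, in order of mean FPKM. Circles are the 3 wild type hearts, triangles the 3 mutant hearts and lines the group means. Every mutant heart lay above every wild type heart for H2-Aa, and for B2m by a margin of about 1 FPKM, while the groups overlapped for the other 8 genes.

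No antigen presentation gene passed the threshold between mutant and wild type hearts. In edgeR's quasi-likelihood test on the counts, 0 of 17473 genes tested (0%) and so 0 of the 10 had a Benjamini-Hochberg adjusted p under 0.05. An unadjusted p under 0.05 was found for 1 of the 10, H2-Aa, against 5.73% of all genes tested (1002 genes). All 10 had a log2 fold change above 0, where 49.8% of all genes tested did, and their median was 0.23 against −0.0010 over all genes. The 10 values come from the same 6 hearts and are not independent of each other. Without mutant replicate 10 the number above 0 was 6, with a median of 0.10. The groups did not overlap in 1 of the 10 genes (H2-Aa, mutant higher), where this held for 11.2% of all genes tested and in that direction for 6.61%. DESeq2, the tool named in the study's methods, also found 0 of the 10 at an adjusted p under 0.05, with 133 of 19282 genes (0.69%) found in all.

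**Figure D2:**
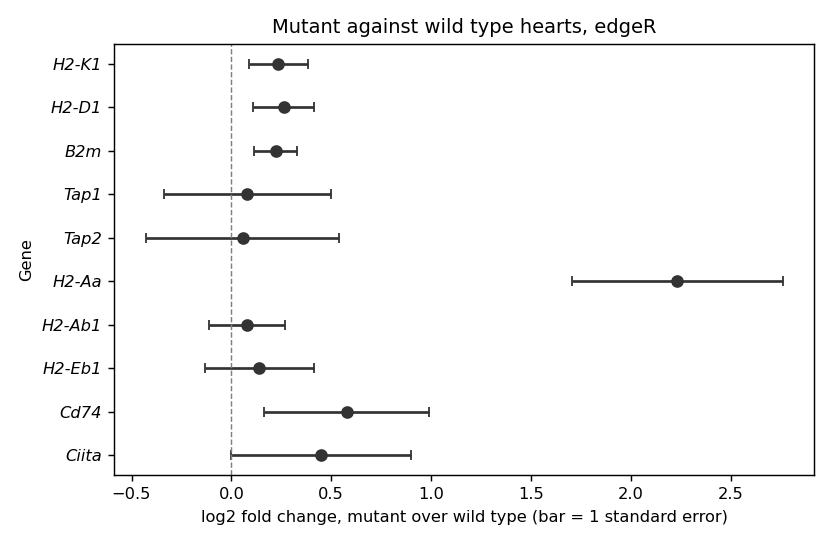
Log2 fold change (mutant over wild type) of each of the 10 genes from edgeR's quasi-likelihood fit, with bars of 1 standard error. H2-Aa stands at 2.23 and the other 9 genes between 0.06 and 0.58.

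Class I heavy chains and B2m were slightly higher in the mutant hearts on average, by less than the test could separate from the spread. H2-K1 (ENSMUSG00000061232, chromosome 17 from 33996017 to 34000347) had FPKM values of 21.4, 21.9 and 19.5 in wild type hearts 2, 3 and 5, and of 19.9, 24.8 and 27.5 in mutant hearts 1, 5 and 10. H2-D1 (ENSMUSG00000073411, chromosome 17 from 35262730 to 35267499) stood at 26.4, 29.5 and 27.4 FPKM in the wild type and 26.8, 33.0 and 37.7 FPKM in the mutant hearts, in the same order. In both genes mutant replicates 5 and 10 lay above every wild type heart and mutant replicate 1 lay among them. The log2 fold change was 0.24 for H2-K1 (SE 0.15, edgeR adjusted p = 0.966) and 0.26 for H2-D1 (SE 0.15, edgeR adjusted p = 0.951), where SE is the standard error, also written after ± for a log2 fold change. Without mutant replicate 1 these values were 0.37 and 0.40, with edgeR unadjusted p of 0.0222 and 0.0190 and adjusted p of 0.732 and 0.715, and without mutant replicate 10 they were 0.10 and 0.11. The ratio of H2-D1 to H2-K1 in FPKM lay between 1.23 and 1.40 in the 6 hearts. Exact windows of 100 bases shared with transcripts of other genes made up 0.957% of the windows of H2-K1 (H2-Q10) and 3.59% of those of H2-D1 (mostly H2-Q1).

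B2m (ENSMUSG00000060802, chromosome 2 from 122147686 to 122153083), the light chain shared by all class I proteins, had 124, 130 and 135 FPKM in wild type replicates 2, 3 and 5. Its level in mutant hearts 1, 5 and 10 was 136, 162 and 147 FPKM. On this scale every mutant heart was above every wild type heart, but by a margin of about 1 FPKM between wild type replicate 5 and mutant replicate 1, and the groups overlapped in counts scaled by TMM, edgeR's library normalization (117 CPM and 115 CPM in those hearts). The log2 fold change was 0.22 ± 0.11 (edgeR adjusted p = 0.918). It ranged from 0.16 to 0.30 with each heart left out.

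The peptide transporter genes were expressed at a low level that varied more between hearts of a group than between the groups. Tap1 (ENSMUSG00000037321, chromosome 17 from 34187553 to 34197225) gave 101, 168 and 43 counts in the wild type hearts (2, 3 and 5) against 70, 112 and 129 in the mutants (1, 5 and 10). Tap2 (ENSMUSG00000024339, chromosome 17 from 34203527 to 34216321) gave 67, 84 and 17 counts in the wild type against 37, 66 and 61 in the mutant hearts. Both subunits were lowest in wild type replicate 5 and highest in wild type replicate 3, a range of 3.07-fold in FPKM for Tap1 and 3.88-fold for Tap2. Their log2 fold changes were 0.08 (SE 0.42, edgeR adjusted p = 0.993) and 0.06 (SE 0.48, edgeR adjusted p = 0.996). Without wild type replicate 5 both turned negative, to −0.23 and −0.32. On the opposite strand, exons of Psmb9 cover 3.87% of the exon bases of Tap1 and exons of Gm15821 cover 14.1% of those of Tap2, and the strand setting of the counting is not given in the sources used here.

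H2-Aa, the class II alpha chain (ENSMUSG00000036594, chromosome 17 from 34282744 to 34287823), had few counts in the wild type hearts and more in each mutant heart. Wild type hearts 2, 3 and 5 gave 2, 6 and 6 counts, and mutant hearts 1, 5 and 10 gave 22, 24 and 21. Those counts correspond to 0.0441, 0.130 and 0.166 FPKM in the wild type and 0.527, 0.563 and 0.484 FPKM in the mutant hearts. Every mutant heart was above every wild type heart, and the 3 mutant hearts were close to each other. Summed over the group, there were 14 counts in wild type hearts (exact Poisson 95% interval 7.65 to 23.5) and 67 in mutant hearts (51.9 to 85.1), where the intervals cover counting error only. The log2 fold change was 2.23 ± 0.53 (SE), a 4.71-fold higher level, with an edgeR p of 0.00272 before and 0.405 after adjustment, so it did not pass the threshold. In whole hearts, more cells of a type and more RNA per cell cannot be told apart. The summed level of 16 macrophage markers did not overlap between the groups either, at 95.5 to 128 FPKM in wild type and 157 to 162 FPKM in mutant hearts, and its part in the level of H2-Aa was not tested. By p H2-Aa ranked at 115 among the 17473 genes. With each heart left out the log2 fold change lay between 1.84 and 2.59, at 2.36 when wild type heart 3 was left out and 2.59 when heart 5 was. Its adjusted p was 0.171 with DESeq2 and higher in the other alternatives that tested it. Among the reference transcripts, those of no other gene held a window of 100 bases in common with H2-Aa, and no exon of another gene overlapped its exons. Which H2 alleles each embryo carried is not given in the sources used here. How reads of DBA/2 alleles mapped to the reference was not tested. The same limit holds for the counts of the other H2 genes and for their ratios.

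H2-Ab1 (ENSMUSG00000073421, chromosome 17 from 34257689 to 34269419), the beta chain that pairs with H2-Aa, had a similar level in both groups. Wild type hearts 2, 3 and 5 gave 343, 409 and 255 counts, mutant hearts 1, 5 and 10 gave 379, 270 and 385, and the groups overlapped. The log2 fold change was 0.08 ± 0.19 (edgeR adjusted p = 0.990), and −0.024 without mutant heart 10. Its level was far above that of its partner in all 6 hearts. The ratio of H2-Ab1 to H2-Aa in FPKM was 178, 70.9 and 44.2 in wild type hearts 2, 3 and 5, and 17.9, 11.7 and 19.1 in mutant hearts 1, 5 and 10. The groups did not overlap in this ratio, with a p of 0.1 in an exact permutation test (two-sided), the smallest that 3 hearts against 3 allow. The ratio was examined after the values of both genes had been seen.

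**Figure D3:**
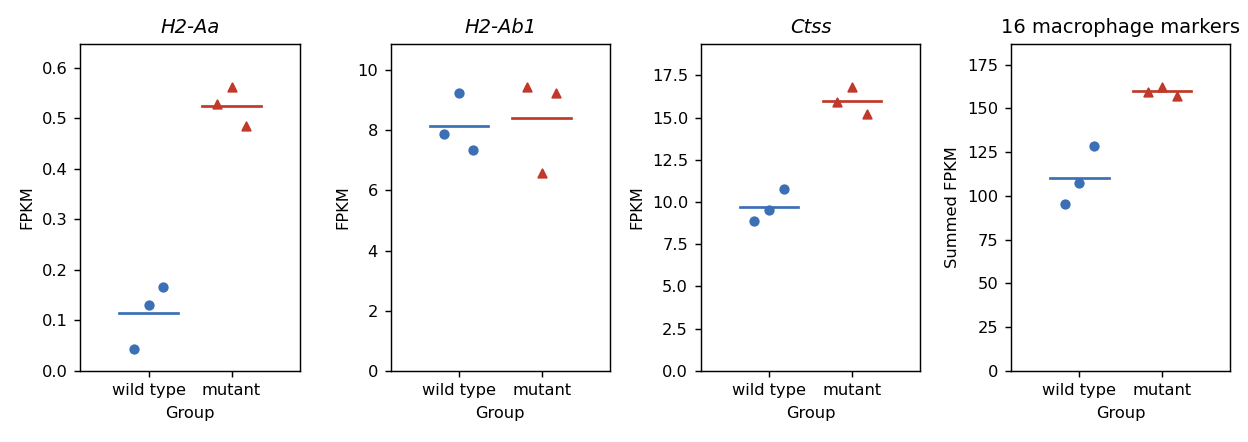
Level in each heart of H2-Aa, H2-Ab1 and the cathepsin gene Ctss (FPKM) and the summed FPKM of 16 macrophage markers, with each axis starting at 0. Points are hearts and lines are group means; the groups overlap for H2-Ab1 and not in the other panels.

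H2-Eb1 (ENSMUSG00000060586, chromosome 17 from 34305867 to 34316674), the beta chain of the other class II protein, gave 76, 80 and 65 counts in the wild type hearts and 81, 61 and 97 in the mutants, in the same order. Its log2 fold change was 0.14 ± 0.27 (edgeR adjusted p = 0.986), and −0.044 without mutant heart 10. The ratio of H2-Ab1 to H2-Eb1 in FPKM stayed between 5.92 and 7.71 in the 6 hearts. Its alpha chain partner H2-Ea, listed in the files as H2-Ea-ps, had 0 counts in all 6 hearts. By counting error alone this allows up to 3 counts in each (a 1-sided 95% limit). The H2 alleles of the embryos are not given, and their part in these 0 counts was not tested.

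Cd74 (ENSMUSG00000024610, chromosome 18 from 60803848 to 60812652) gave 27, 41 and 55 counts in the wild type hearts (2, 3 and 5) against 55, 50 and 81 in the mutants (1, 5 and 10). Mutant replicate 10 was the highest and wild type replicate 2 the lowest heart, and the groups overlapped through wild type replicate 5. The log2 fold change was 0.58 ± 0.41 (edgeR adjusted p = 0.979). It was 1.01 without wild type replicate 5, with an edgeR adjusted p of 0.358, and 0.31 at the lowest with a heart left out. Ciita (ENSMUSG00000022504, chromosome 16 from 10480059 to 10528418) was near the limit of detection, with 8, 15 and 13 counts in the wild type hearts and 19, 17 and 13 counts in the mutant hearts. Its log2 fold change was 0.45 ± 0.45 (edgeR adjusted p = 0.985), with 0.19 when wild type heart 2 was left out, and 3.45% of its exon bases lie under exons of Dexi, which runs the opposite way.

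Other genes of the pathway were taken from lists written from general knowledge. Of 12 genes that cut or load class I peptides, all were tested, 0 had an unadjusted edgeR p under 0.05, 11 had a log2 fold change above 0, and the median was 0.14. The groups did not overlap for 2 of the 12, where this held for 11.2% of all genes tested and with the mutant higher for 6.61%. These were Tapbpl, the tapasin-related editor (log2 fold change 0.36), and the immunoproteasome subunit Psmb8 (log2 fold change 0.56). Psmb8 had from 20 to 35 counts in wild type and 38 to 50 counts in mutant hearts. Erap1, the peptide-trimming enzyme, had the smallest p of the list, with a log2 fold change of 0.29 ± 0.16 (edgeR adjusted p = 0.939). The chaperone Calr had the highest level, at a mean of 685 FPKM. Among the other class I genes, 19 were in the files, 15 had a count and 12 were tested, with 5 above 0 and 7 below, a median of −0.10 and 0 with an unadjusted p under 0.05. The smallest p there was that of H2-M5, at 36, 34 and 42 counts in the wild type against 27, 21 and 6 in the mutant hearts (log2 fold change −1.06, edgeR adjusted p = 0.920). The sign of this median depended on the setting: it was 0.06 with 7 of 12 genes above 0 when wild type heart 3 was left out, 0.07 when at least 1 CPM was required in 3 hearts, and −0.25 when wild type heart 5 was left out. In the pathway lists, DESeq2 called 1 gene (Ctss, described next) and limma-voom 0, where DESeq2 called 0.69% of all genes.

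Of the genes that load or regulate class II, 18 were in the files and 14 were tested, with 8 above 0, 6 below and a median of 0.02. Ctss, the cathepsin that cuts Cd74 in antigen-presenting cells, was the one gene of this list with an unadjusted edgeR p under 0.05. Such a p was found for 5.73% of all genes tested. Ctss had 8.85, 9.54 and 10.8 FPKM in the wild type hearts (2, 3 and 5) and 15.9, 16.8 and 15.2 FPKM in the mutants (1, 5 and 10). Every mutant heart was above every wild type heart. The log2 fold change was 0.75 ± 0.12 (edgeR adjusted p = 0.154). DESeq2 gave an adjusted p of 1.58e-04, and edgeR without a filter on low counts 0.0491 and without wild type replicate 5 0.0263, so whether Ctss passed depended on the tool and the setting. The factors that sit on the X and Y boxes (Rfx5, Rfxap, Rfxank, Creb1, Nfya, Nfyb and Nfyc) had log2 fold changes between −0.23 and 0.07. The peptide exchange genes H2-DMa, H2-DMb1 and H2-DMb2 had log2 fold changes of 0.03, −0.16 and 1.08, and the last rested on 12, 3 and 2 counts in wild type and 11, 12 and 12 counts in mutant hearts.

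Co-stimulatory genes and interferon genes, which rise with antigen presentation in activated cells, were read from 2 further lists. Of 6 co-stimulatory genes 5 were tested and 0 had an unadjusted p under 0.05. The smallest p was that of Cd86 (log2 fold change 0.76 ± 0.37, edgeR adjusted p = 0.920). The groups did not overlap for 2 of the 5, Cd86 and Cd274, with the mutant higher. In that direction this held for 6.61% of all genes tested. Of 28 interferon signalling and target genes 26 were tested, 23 were above 0 and 3 below, the median was 0.25, and 3 had an unadjusted p under 0.05, all higher in the mutant (Irf7, Ifit3 and Irgm1), where 3.14% of all genes did so in that direction. Irf7, with the smallest p of the list, had a log2 fold change of 0.85 and an edgeR adjusted p of 0.728. The groups did not overlap for 5 of the 26, all with the mutant higher, against 6.61% of all genes tested. Without mutant replicate 10 the number with an unadjusted p under 0.05 was 0 and the median 0.13. Ifng, the main inducer of Ciita, had 0 counts in 5 hearts and 3 counts in mutant replicate 5.

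**Figure D4:**
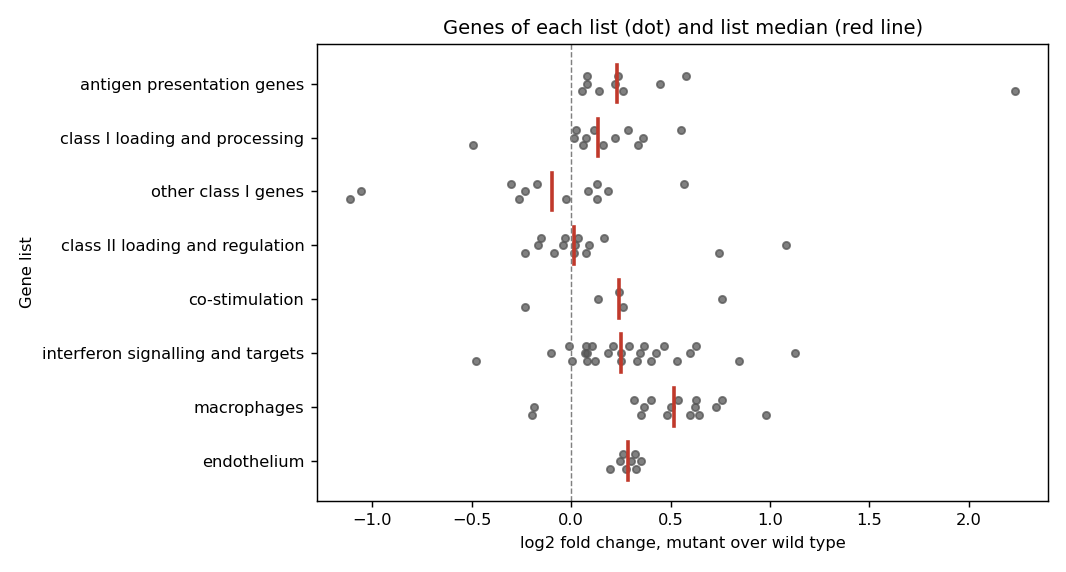
Log2 fold change (mutant over wild type, edgeR) of each tested gene of 8 lists, with the list median as a red line. The median is 0.23 for the antigen presentation genes, −0.10 for the other class I genes and 0.52 for the macrophage markers, and H2-Aa is the dot at 2.23.

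The macrophage markers whose sum is given above were also examined one by one. All 16 markers were detected in the hearts. The 2 with a log2 fold change below 0 were Mrc1 (−0.19) and Mertk (−0.20), so their sum holds values in both directions. Of the 16, 14 had a log2 fold change above 0, the median was 0.52, and 11 had an unadjusted edgeR p under 0.05, all higher in the mutant, where 3.14% of all genes tested did so in that direction, while 0 passed after adjustment (2 with DESeq2, C1qa and C1qb, and 0 with limma-voom). DESeq2 called 0.69% of all genes. C1qa, a complement subunit made by tissue macrophages, had the smallest p of the 16. Its log2 fold change was 0.98 ± 0.18 (adjusted p = 0.259 from edgeR, or 3.01e-04 from DESeq2). With each heart left out, between 6 and 12 of the 16 had an unadjusted p under 0.05 (3.44% to 12.2% of all genes in the same fits), at 6 when wild type heart 3 or mutant heart 10 was left out and at 7 for wild type heart 2 or mutant heart 5. H2-Aa differed by more on the log2 scale than any of these 16 markers. Cd74 (0.58) also lay above the marker median. H2-K1, H2-D1, B2m, Tap1, Tap2, H2-Ab1, H2-Eb1 and Ciita lay below it. These differences between genes were not tested. The part of macrophages in the value of Ctss was not tested.

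The markers of the other cells that make class II were low. Of 8 dendritic cell markers, 7 had a count and 5 were tested, and the summed level overlapped between the groups (7.40 to 9.11 FPKM in wild type, 8.03 to 9.10 FPKM in mutant hearts), with Zbtb46, which endothelial cells also express, as the main part at a mean of 7.38 FPKM. Flt3, a receptor of dendritic cell and other blood progenitors, had the smallest p, with 5, 2 and 0 counts in wild type and 11, 11 and 14 in mutant hearts (log2 fold change 2.36 ± 0.76, edgeR adjusted p = 0.696). Of the 5 tested dendritic cell markers, 4 had a log2 fold change above 0 and 1 below. The latter was Clec9a, with 42, 20 and 28 counts in wild type and 15, 28 and 25 in mutant hearts. Its log2 fold change was −0.39 (edgeR adjusted p = 0.985). Xcr1 had at most 6 counts in any heart, and Cd209a had 0 in all. The B cell markers summed to between 1.14 and 1.71 FPKM in the 6 hearts, with Pax5 at no more than 1 count in any heart and the smallest p at Blk, a kinase of B cells (log2 fold change −0.46 ± 0.37, edgeR adjusted p = 0.985). The B cell marker Cd79b had 48, 39 and 18 counts in wild type and 43, 37 and 49 in mutant hearts (log2 fold change 0.36). Of the T cell markers, Cd3e had 0 counts in all 6 hearts and Lck, the 1 that was tested, made up most of the sum, at a mean of 3.49 FPKM. Lck had 3.10, 4.04 and 5.16 FPKM in wild type hearts 2, 3 and 5 and 2.84, 3.05 and 2.77 FPKM in mutant hearts 1, 5 and 10. Its groups did not overlap, with the mutant lower (log2 fold change −0.48 ± 0.22, edgeR adjusted p = 0.909). Over all genes tested, the groups did not overlap for 11.2%, counting both directions. Endothelial markers, on cells that make class I, had log2 fold changes between 0.19 and 0.35 for all 8 genes. With all 6 hearts these were close to the 0.22 to 0.26 of H2-K1, H2-D1 and B2m. Of the 8, 1 had an unadjusted edgeR p under 0.05 (Emcn), where 5.73% of all genes tested did. The median log2 fold change of the endothelial markers was 0.29, with 0.14 without wild type heart 5 and 0.42 without wild type heart 2. In the fit without wild type heart 2, 5 of the 8 had such a p, where 5.72% of all genes did. H2-K1, H2-D1 and B2m stood at 0.25, 0.23 and 0.19 in that fit. They stood at 0.20, 0.26 and 0.26 in the fit without wild type heart 5. The summed level of the endothelial markers overlapped between the groups, at 222 to 330 FPKM in wild type and 296 to 368 FPKM in mutant hearts. Its part in the class I values was not tested. The 7 epicardial markers, of the layer in which Wt1 is best known, summed to 118 to 196 FPKM in wild type and 110 to 163 FPKM in mutant hearts, a sum over genes with values in both directions. Of the 7, 3 had a log2 fold change above 0 and 4 below. An unadjusted edgeR p under 0.05 was found for 3 (2 higher, 1 lower), where 5.73% of all genes tested had one. After adjustment 0 passed (1 with DESeq2, Tcf21, where 0.69% of all genes did, and 0 with limma-voom). Tcf21, a transcription factor of epicardial cells and fibroblast precursors, was at 36.2 to 46.9 FPKM in wild type and 16.1 to 23.3 FPKM in mutant hearts (log2 fold change −1.10 ± 0.15, adjusted p = 0.113 from edgeR and 1.60e-07 from DESeq2), and edgeR's adjusted p was 0.00942 without a filter on low counts and 0.0349 without wild type heart 5. Upk1b, a uroplakin of mesothelial cells, was at 4.36 to 9.08 FPKM in wild type and 9.28 to 14.9 FPKM in mutant hearts (log2 fold change 0.96 ± 0.29, edgeR adjusted p = 0.664).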

How the data were processed

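Per the study's methods, the authors mapped trimmed reads to mm10 using STAR, and featureCounts assigned the uniquely mapped ones to genes, while the submitters' processing notes name HTSeq and DESeq2. The deposited counts per gene are not normalized. The deposited FPKM values equal the count divided by the library total and by 1 fixed length per gene (largest relative deviation 9.8e-15), and the authors' table of mean FPKM was not used. Groups were compared by the quasi-likelihood test of edgeR 4.0.16 (R 4.3.3) with TMM, filterByExpr at its defaults (count minimum 10, total 15), no covariate, two-sided, with Benjamini-Hochberg adjustment over the 17473 genes tested and a threshold of 0.05. CPM values are scaled to TMM library sizes. The standard errors of edgeR's log2 fold changes are the absolute log2 fold change divided by the square root of the test's F statistic. Alternatives were DESeq2 1.42.0, limma 3.58.1 (voom, and trend on log2 FPKM plus 1 or 0.1), other size factors and filters, a robust dispersion and each heart left out. The fits were also run on simulated counts, with limma-trend on log2 CPM. The changes planted there were larger than those of the 10 genes except H2-Aa. They lay in genes above 1 CPM, a level H2-Aa did not reach. How often changes like those of the 10 genes would be found was not tested. Nothing says how the embryos were spread over litters, so the p-values measure the spread between these hearts. Reads carry no molecular identifiers, and limits from counts cover counting error only. Positions are those of GENCODE M21 (GRCm38). No pair of hearts differed as little as counting error gives. The genes and lists were chosen with earlier results of these data known. Named by rule were all 10 genes and, from each pathway list and the macrophage, dendritic cell, B cell, T cell and endothelium lists, the genes past the threshold or, with none, the gene with the smallest p; the gene with the highest level could be named for scale. All others, among them Tcf21, Upk1b, Tapbpl, Psmb8, Ifit3, Irgm1, Alb, H2-Ea-ps and the H2-DM genes, were chosen after their values were seen.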

Additional observations from a re-analysis of the deposited data

How the results depend on the processing

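No paired analysis was possible because nothing in the labels pairs hearts across the groups, and litters are not given. Over all genes, edgeR's quasi-likelihood test called 0 genes, against 34 without a filter on low counts and 133 with DESeq2, and between 0 and 44 with 1 heart left out (44 without wild type replicate 5). None of the 10 antigen presentation genes was called under any of the 15 alternatives. The number of them with an unadjusted p under 0.05 was 1, against 0 when at least 1 CPM was required in 3 hearts, which removed H2-Aa and Ciita, and between 1 and 4 with a heart left out: 4 without mutant heart 1, where 6.31% of all genes had such a p, and 3 when wild type heart 5 was left out, where 12.2% did. The number with a log2 fold change above 0 was 10, and with a heart left out between 6 (without mutant replicate 10) and 10. Their median stayed between 0.10 and 0.36. H2-Aa kept its direction and an unadjusted p under 0.05 in the 14 alternatives that tested it, and its log2 value was lowest at 0.45 on log2(FPKM + 1), where the pseudocount exceeds its level. Directions turned only with a heart left out: Tap1 ranged from −0.23 to 0.54, Tap2 from −0.32 to 0.41, H2-Ab1 from −0.024 to 0.23 and H2-Eb1 from −0.044 to 0.30. The cause was not tested. Depth limits H2-Aa and Ciita most, where a count of 2 has an exact 95% interval from 0.242 to 7.22.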

Other observations

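H2-Q10, a class I gene known for expression in liver, had 262 counts in wild type replicate 3 and between 4 and 14 counts in the other 5 hearts. The liver gene Afp had 20620 counts in wild type replicate 3, 772 in mutant replicate 1 and 340 or fewer in the others. Among the 10 antigen presentation genes, Tap1 and Tap2 were highest in wild type replicate 3. H2-Q1, too low to be tested, gave 0, 1 and 2 counts in the wild type (2, 3 and 5) against 8, 4 and 10 in the mutant hearts (1, 5 and 10), and shares windows of 100 bases with H2-D1. Of the 44 genes whose symbol begins with H2-, 29 had a count in any heart and 18 were tested, with 9 log2 fold changes above 0 and 9 below and a median of 0.0034. These genes were chosen after their values were seen.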
